A study of Arabidopsis thaliana with 24 samples.

Results

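Phosphate uptake by the Arabidopsis thaliana root depends on a small set of transporters and on the proteins that set their abundance, and 9 genes of this system were followed here. They were chosen by locus ID: PHO2 (AT2G33770) and NLA (AT1G02860), which are targets of microRNAs, the uptake transporters PHT1;1 (AT5G43350) and PHT1;4 (AT2G38940), their trafficking factor PHF1 (AT3G52190), the exporter PHO1 (AT3G23430), the sensor genes SPX1 (AT5G20150) and SPX3 (AT2G45130), and the non-coding target mimic IPS1 (AT3G09922). The count table held all 9 among its 33602 genes. PHO2, PHT1;4 and SPX3 are on chromosome 2, NLA is on chromosome 1, PHF1, PHO1 and IPS1 are on chromosome 3, and PHT1;1 and SPX1 are on chromosome 5.

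The libraries were made from whole roots of seedlings 6 days after they were put in light, grown on upright plates of MS medium at 22 °C in long days, and the labels name no phosphate treatment. All plants carried HF-RPL18, a ribosomal protein with a FLAG tag, so that anti-FLAG beads pulled down tagged ribosomes with their mRNA. The tag was expressed from the viral 35S promoter, or from 1 of 5 promoters labelled for a layer: WER for the epidermis, CO2 for the cortex, SCR for the endodermis, SHR for the stele and ACR4 for the columella. Each line existed in the wild type Col0 and in the hyl1 mutant. Each of the 12 groups had 2 libraries, each from about 20 plates per the labels. HYL1 binds double-stranded RNA and helps DCL1 cut microRNAs from their precursors. The labels give neither the hyl1 allele nor the number of independent transformants behind a line, nor whether 2 replicates were grown apart. The p-values therefore refer to the spread between libraries, part of which may be technical.

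As background, miR399 accumulates when phosphate is scarce and lowers the PHO2 transcript, whose product is a ubiquitin-conjugating enzyme that promotes degradation of PHO1 and of PHT1 proteins. NLA is a RING-type ubiquitin ligase that removes PHT1 proteins from the plasma membrane, and its transcript is a target of miR827. The starvation response as a whole is driven by the transcription factor PHR1, which is held back by SPX proteins when phosphate is ample. IPS1 is an RNA induced by starvation that binds miR399 without being cut.

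The microRNAs and their sites are shown because they link PHO2, NLA and IPS1 to a mutant of the microRNA pathway. All were read by locus from RefSeq TAIR10.1. The mature miR399 forms with this seed all shared bases 2 to 8, printed in capitals, and differed from each other only outside them, while miR827 had another seed.
miR399a: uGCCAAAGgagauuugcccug
miR399b: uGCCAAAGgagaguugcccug
miR399d: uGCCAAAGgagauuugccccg
miR399e: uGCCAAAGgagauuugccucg
miR399f: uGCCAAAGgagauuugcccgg
miR827: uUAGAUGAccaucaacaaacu

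PHO2 and IPS1 were searched for pairing with the miR399 of 6 loci, and NLA with miR827. The other members and the other pairs were not searched. There were 5 sites in PHO2, all in the 5′ UTR, 1 site in the 5′ UTR of NLA and 1 site in IPS1. Capitals mark bases in Watson-Crick pairs with the microRNA. The PHO2 sites are 21 bases long, at positions 680 to 700, 813 to 833, 902 to 922, 959 to 979 and 1016 to 1036 of a transcript of 4176 bases. The IPS1 site is 24 bases long and holds 3 bases with no partner opposite the middle of the microRNA. The size and place of this gap were set beforehand, and it was allowed in the search of IPS1 alone.
PHO2 site 1: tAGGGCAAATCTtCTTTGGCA
PHO2 site 2: tAGGGCAtATCTCCTTTGGCA
PHO2 site 3: ttGGGCAAATCTCCTTTGGCA
PHO2 site 4: tCGaGCAAATCTCCTTTGGCA
PHO2 site 5: tAGaGCAAATCTCCTTTGGCA
NLA site: tGTTTGTTGATGGTCATCTAA
IPS1 site: ttGGGCAACTtctaTCCTTTGGCA

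Every PHO2 site and the IPS1 site end in the complement of the miR399 seed, and the NLA site, at positions 258 to 278, ends in that of miR827. RefSeq TAIR10.1 labels IPS1 as protein-coding, with the miR399 site inside the annotated coding sequence, while IPS1 is described here as non-coding. The genes of the microRNAs themselves were hardly sampled: the 7 loci of miR399 and miR827 had 10 counts in all over the 24 libraries, 4 in Col0 and 6 in hyl1, and never more than 1 in a library. Their level could not be compared at this depth.

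The 24 libraries held 2868803 to 13575556 counts each. HYL1 itself had 5.34 to 15.4 CPM (counts scaled to a TMM-corrected library size) in Col0 and 0.109 to 9.95 in hyl1, and within each of the 6 lines both hyl1 libraries were below both Col0 libraries (log2 fold change −1.67 ± 0.34 SE, adjusted p = 0.00185, edgeR). Replicates had a correlation of log2 CPM over genes of 0.938 to 0.982, except the hyl1 WER pair at 0.803, and HYL1 had 1 count in 1 library of that pair and 39 in the other. The hyl1 WER libraries held 12046376 and 13575556 counts but the fewest genes with counts, 25475 and 22330, against 27359 and 28587 in Col0 WER. Their TMM factors, 0.765 and 0.713, were the lowest of the 24 libraries. The labelled layers were checked with marker lists. Endodermis markers peaked in the SCR line (summed CPM of 8 genes 487 to 2095), with the Col0 SCR pair far apart at 2084 and 487, and stele markers were highest in the SHR line in Col0 (325 to 373). The 5 columella and root cap markers summed to 386 and 390 CPM in Col0 ACR4 but only 43.4 and 56.95 in hyl1 ACR4, below the 170 to 256 CPM of the 35S line, so the columella label does not hold for the markers of hyl1 ACR4. The same markers reached 334 and 451 CPM in Col0 WER against 87.3 and 92.6 in hyl1 WER. The 3 cortex markers stayed between 1.97 and 9.68 CPM in all libraries, and hyl1 CO2, at 2.64 and 3.48 CPM, did not stand above the other lines. In libraries of this kind fewer tagged cells of a type and less RNA per cell cannot be told apart.

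Levels are compared between genes only per length. In Col0 35S, where the promoter is not layer-specific, PHT1;1 and PHO2 had 76.1 ± 13.6 and 74.0 ± 10.7 CPM per kb of annotated exon (mean ± SD, n = 2), and PHO1 had 60.3 ± 3.59. NLA followed at 23.1 ± 1.07, SPX1 at 21.5 ± 1.30, PHT1;4 at 13.5 ± 2.85 and PHF1 at 12.8 ± 0.74 CPM per kb. SPX3 and IPS1, which respond strongly to starvation, were near the floor at 1.54 ± 0.0046 and 0.65 ± 0.31 CPM per kb. All values below are CPM per gene, not per length.

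**Figure D1:**
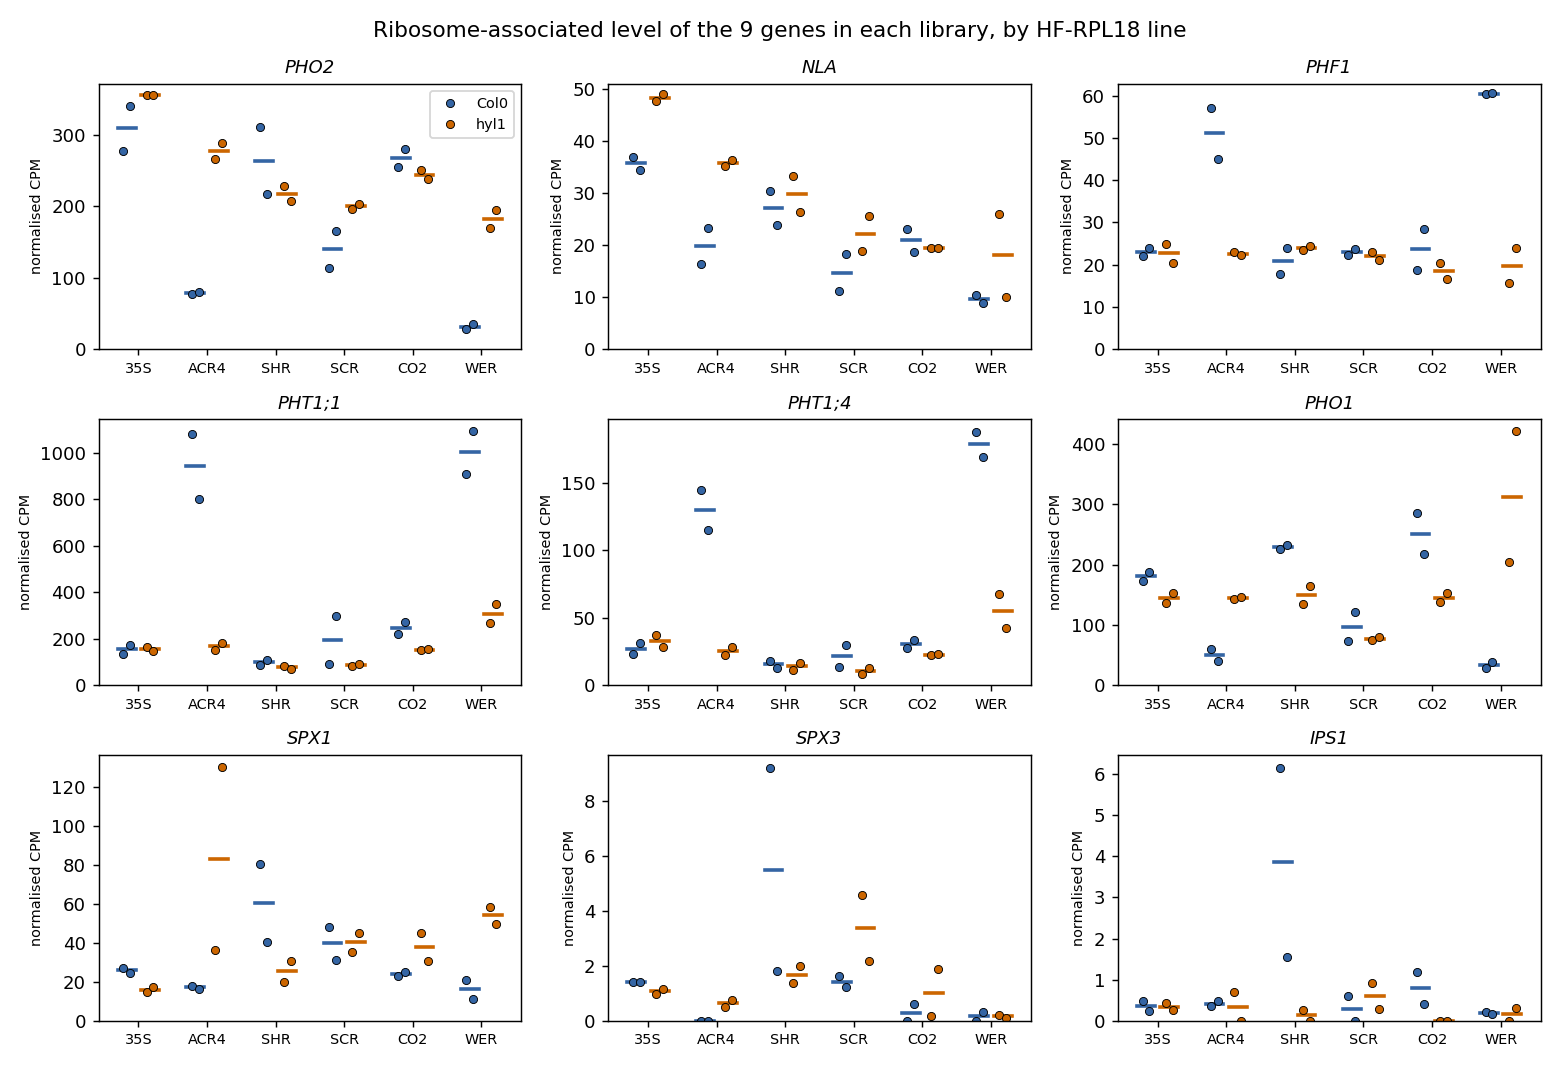
Normalised CPM (vertical axis, linear, from 0) of the 9 genes in each of the 24 libraries by HF-RPL18 line (horizontal axis), with Col0 in blue, hyl1 in orange and a short bar for the mean of 2 libraries. In the ACR4 and WER lines PHO2 and PHO1 lie low in Col0 and high in hyl1, while PHT1;1, PHT1;4 and PHF1 lie high in Col0 and low in hyl1.

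The first question was whether the ribosome-associated level of these genes differed between hyl1 and Col0. As the mean of the 6 lines, PHO2, NLA and PHO1 were higher in hyl1 and PHT1;1, PHT1;4 and PHF1 were lower, so 6 of the 8 members that passed the filter on low counts were called at an adjusted p under 0.05, 3 in each direction. Over all 23219 tested genes 19.8% were called. The size of the effect was uneven over the lines. In the ACR4 and WER lines 6 members were called, the same 6 in each (PHO2, PHO1 and SPX1 higher, PHT1;1, PHT1;4 and PHF1 lower), beside 14.7% and 39.1% of all genes. DESeq2 called 6 members in the ACR4 line and 7 in the WER line, where NLA was the seventh. In the 35S, SHR, SCR and CO2 lines no member was called by edgeR, beside 0.0991%, 0.0818%, 1.89% and 0.146% of all genes, and by DESeq2 none was called there either. The numbers of members with an unadjusted p under 0.05 in those lines are 0, 1, 3 and 1.

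PHO2, the enzyme that marks phosphate transporters for degradation, had 76.8 and 80.4 CPM in Col0 ACR4 and 266 and 288 in hyl1 ACR4. In the WER line it had 28.1 and 35.1 CPM in Col0 against 170 and 195 in hyl1. These 2 lines held the lowest Col0 levels and no hyl1 library came near them. The fold changes were 3.52 in the ACR4 line (log2 1.82 ± 0.22 SE, adjusted p = 4.53e-05) and 5.77 in the WER line (log2 2.53 ± 0.22, adjusted p = 5.61e-07).

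Elsewhere PHO2 moved little. Col0 35S had 277 and 340 CPM and hyl1 35S 355 and 355, Col0 SHR 311 and 216 against 227.4 and 207, and Col0 CO2 255 and 280 against 250 and 237.4. In the SCR line both hyl1 libraries (197 and 204 CPM) were above both Col0 libraries (114 and 166), a log2 difference of 0.52 with a 95% interval of 0.07 to 0.96 that did not pass the adjustment (adjusted p = 0.378, edgeR). The intervals for the SHR and CO2 lines, −0.72 to 0.17 and −0.58 to 0.31 on the log2 scale, leave out the size seen in the ACR4 and WER lines. The mean over the lines was 0.77 ± 0.09 (adjusted p = 7.73e-06, higher in 4 of 6 lines), and without the ACR4 and WER lines it was 0.09 (adjusted p = 0.815).

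NLA, the ubiquitin ligase under miR827, was the other direct microRNA target. Its level in Col0 and hyl1 was 36.9 and 34.6 against 47.7 and 49.1 CPM in the 35S line, 16.4 and 23.3 against 35.3 and 36.4 in the ACR4 line, and 11.2 and 18.2 against 18.9 and 25.5 in the SCR line. In these 3 lines the genotypes did not overlap and hyl1 was higher. With 2 libraries in each group, a lack of overlap often arises without any difference. This holds here and for the other genes and marker sums, and its share over all genes was not computed. In the WER line hyl1 had 26.1 and 10.14 CPM against 10.4 and 8.94, and 1 library of the pair was alone in its rise. In the SHR line (30.4 and 23.9 against 33.3 and 26.4 CPM) and the CO2 line (23.2 and 18.8 against 19.5 and 19.4 CPM) the genotypes overlapped. The mean log2 fold change was 0.47 ± 0.15 (adjusted p = 0.0287, edgeR, higher in 5 of 6 lines), and the call was lost in 11 of the 24 fits that left out 1 library, with adjusted p up to 0.0689. In the WER line the change was 0.90 (adjusted p = 0.0532), and NLA passed there with RLE scaling (adjusted p = 0.0363), with no filter on low counts (0.0304) and by DESeq2 (0.0327). Leaving out 1 library of the WER line gave changes from 0.07 to 1.49. In the ACR4 line (0.85, adjusted p = 0.127) NLA passed with the 4 libraries of that line alone (0.00523). Leaving out 1 library of the ACR4 line gave changes from 0.61 to 1.12. NLA overlaps AT1G02870 and the non-coding AT1G04147 on the opposite strand, and since the use of strand in counting is not given in the sources used here, reads of these genes cannot be told apart.

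The transporters that bring phosphate into the root showed the opposite pattern. PHT1;1, the most abundant of them here, had 1081 and 803 CPM in Col0 ACR4 and 153 and 181 in hyl1 ACR4, a log2 fold change of −2.50 ± 0.37 (adjusted p = 0.000253). In the WER line it had 911 and 1093 CPM in Col0 and 266 and 350 in hyl1 (−1.70 ± 0.36, adjusted p = 0.00134). The Col0 libraries of these 2 lines were higher than all 20 others by a wide margin. In the CO2 line hyl1 was lower without overlap (220 and 272 against 150 and 156 CPM), as in the SHR line (88.2 and 109 against 83.8 and 67.7 CPM), but neither passed (adjusted p = 1 in each). The 35S pairs overlapped at 134 and 172 against 164 and 147 CPM.

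In the SCR line the Col0 replicates themselves disagreed: PHT1;1 had 88.8 CPM in replicate 1 and 295 in replicate 2, against 83.4 and 89.04 in hyl1. Endodermis markers were 2084 CPM in replicate 1 and 487 in replicate 2, and columella markers 20.4 and 123 CPM. With all libraries the SCR difference was −1.16 for PHT1;1 (adjusted p = 0.150, edgeR) and −1.06 for PHT1;4 (adjusted p = 0.197). Without Col0 replicate 1 the values were −1.77 and −1.52. Over the 4 fits that left out 1 library of the line, PHT1;1 ran from −1.77 to −0.04 and PHT1;4 from −1.52 to −0.39.

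PHT1;4, which takes up phosphate beside PHT1;1, had 145 and 115 CPM in Col0 ACR4 against 22.2 and 27.9 in hyl1, and 188 and 169 in Col0 WER against 67.4 and 42.0. The log2 fold changes were −2.37 ± 0.35 (adjusted p = 0.000230) and −1.71 ± 0.34 (adjusted p = 0.000753). It was between 8.23 and 37.2 CPM in the 16 libraries of the other 4 lines, with hyl1 below Col0 in the SCR line (13.5 and 29.5 against 8.23 and 12.3) and the CO2 line (27.1 and 33.3 against 21.9 and 23.2). PHF1, which helps PHT1 proteins leave the endoplasmic reticulum, had 57.2 and 45.0 CPM in Col0 ACR4 against 22.9 and 22.3 in hyl1, and 60.3 and 60.6 in Col0 WER against 15.7 and 23.9. Every other library, of either genotype, lay between 16.6 and 28.6 CPM. Its log2 fold changes were −1.17 ± 0.27 in the ACR4 line (adjusted p = 0.00544) and −1.61 ± 0.27 in the WER line (adjusted p = 0.000170). The ACR4 call of PHF1 was lost without Col0 replicate 1 (adjusted p = 0.0779), hyl1 replicate 1 (0.0539) or hyl1 replicate 2 (0.0641).

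As the mean of the lines PHT1;1 changed by −1.07 ± 0.15 (adjusted p = 6.63e-05), PHT1;4 by −0.91 ± 0.14 (adjusted p = 0.000215) and PHF1 by −0.50 ± 0.11 (adjusted p = 0.00303) on the log2 scale. Without the ACR4 and WER lines the values were −0.54, −0.33 and −0.05, and none was called (adjusted p = 0.120, 0.400 and 0.914). PHT1;1 shares 832 of its 1963 windows of 50 bases with other transcripts, 823 of them with its neighbour PHT1;2 (AT5G43370), so reads may have been split between the copies. PHT1;2 had 0.355 to 0.547 times the counts of PHT1;1 over the 24 libraries, and with both counted as 1 gene the ACR4 and WER changes were −2.47 and −1.61 (adjusted p = 0.000289 and 0.00214).

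PHO1, which loads phosphate into the xylem and is a known target of the PHO2 enzyme at the protein level, changed in different directions in different lines. In Col0 ACR4 it had 59.8 and 40.0 CPM and in hyl1 143 and 146, and in Col0 WER 28.3 and 38.4 against 204 and 421. The log2 fold changes were 1.54 ± 0.31 (adjusted p = 0.00227) and 3.23 ± 0.33 (adjusted p = 1.88e-06), the latter 9.36-fold. The ACR4 call was lost without Col0 replicate 2 (1.27, adjusted p = 0.0541). In the 35S line hyl1 was lower without overlap, at 136 and 152 CPM against 173 and 188, in the SHR line at 135 and 164 against 226.4 and 232.8, and in the CO2 line at 138 and 152 against 286 and 217. None of these 3 was called alone (adjusted p = 1, 0.942 and 0.769). The SCR pairs overlapped, at 72.4 and 121 CPM in Col0 and 74.4 and 78.9 in hyl1.

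The mean change of PHO1 over the 6 lines was 0.45 ± 0.12 (adjusted p = 0.0146), which rested on the ACR4 and WER lines. Without them, an alternative chosen after the data were seen, PHO1 was the only member called, and it was lower in hyl1 (log2 −0.51, adjusted p = 0.0199). With the 35S, SHR and CO2 lines alone it was −0.57 (adjusted p = 0.00843). Without the WER line alone it was −0.10 (adjusted p = 0.629).

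SPX1, a nuclear sensor that binds PHR1 when phosphate is ample, had 18.1 and 16.6 CPM in Col0 ACR4 against 36.3 and 130 in hyl1, and 21.2 and 11.1 in Col0 WER against 58.7 and 49.98. The changes were 2.26 ± 0.48 (adjusted p = 0.00325) and 1.75 ± 0.47 (adjusted p = 0.00678). The ACR4 value rested on hyl1 replicate 2, with 696 counts against 209, and was 1.06 (adjusted p = 0.185) without it. The WER call was lost without Col0 replicate 2 (1.35, adjusted p = 0.0850). In the 35S line hyl1 was lower (14.8 and 17.4 against 27.0 and 24.8 CPM), as in the SHR line (20.2 and 31.0 against 80.8 and 40.4 CPM), and in the CO2 line it was higher (45.0 and 30.6 against 22.8 and 25.2 CPM), each without overlap and without passing the test. The mean over the lines was 0.46 ± 0.19 and was not called (adjusted p = 0.0976).

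SPX3, an SPX protein that also restrains the starvation response, was scarce: 0 to 30 counts per library, 90 counts in all 12 Col0 libraries and 94 in hyl1. It was at 0 counts in both Col0 ACR4 libraries, against 3 and 4 in hyl1 ACR4. Its highest level was 9.22 CPM (30 counts) in Col0 SHR replicate 1, with 1.81 CPM in replicate 2. No hyl1 comparison of SPX3 passed (adjusted p = 0.0820 or more).

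IPS1 had 0 to 20 counts per library and did not pass the filter on low counts. Its highest values were both in Col0 SHR, at 20 and 6 counts (6.14 and 1.56 CPM), where hyl1 SHR had 1 and 0. It was at 0 in 1 Col0 library and in 5 hyl1 libraries, and its sum was 55 counts in Col0 and 21 in hyl1. The same Col0 SHR replicate 1 was the highest library for SPX3 and IPS1 and the highest Col0 library for SPX1.

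**Figure D2:**
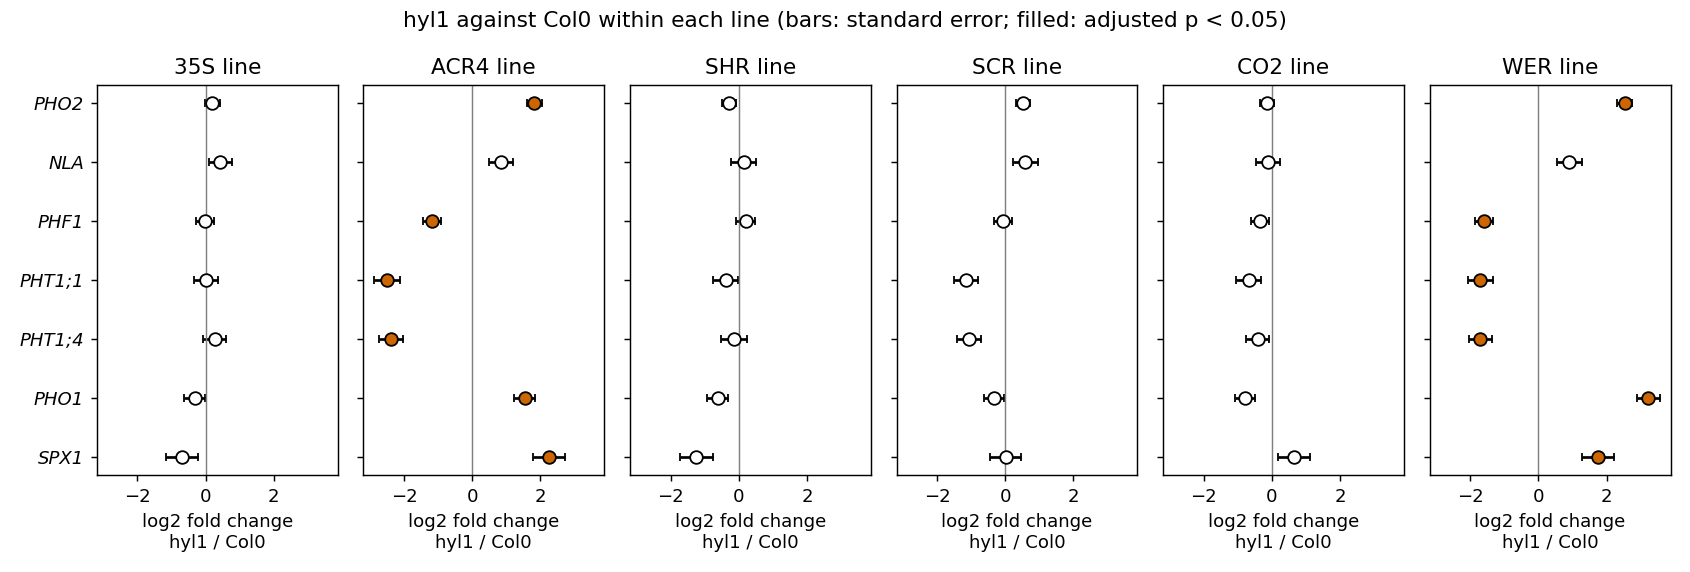
Log2 fold change of hyl1 against Col0 (horizontal axis) for 7 members (vertical axis) within each of the 6 lines, with bars for the standard error and filled points for an adjusted p under 0.05. Filled points occur in the ACR4 and WER lines alone, 6 in each.

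Whether the effect of hyl1 itself differed between the lines was tested with an F test on the genotype by line terms. The effect differed for 6 of the 8 tested members, beside 17.8% of all genes. It differed for PHO2 (adjusted p = 1.69e-05), PHO1 (2.29e-05), PHT1;4 (0.00469), SPX1 (0.00488), PHF1 (0.00822) and PHT1;1 (0.0125). For NLA (adjusted p = 0.571) and SPX3 (0.216) no difference between lines was detected. The call of PHF1 was lost with no filter on low counts (adjusted p = 0.0535), and that of PHT1;1 without hyl1 ACR4 replicate 1 (0.0537).

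Markers of root layers also differed between the genotypes, in the ACR4 and WER lines above all. In the ACR4 line 4 of 5 columella markers were lower in hyl1, 5 of 8 endodermis markers and 4 of 8 stele markers were higher, and 2 of 8 epidermis markers were lower. Over all genes 14.7% were called in that line, in either direction. In the WER line 4 of 5 columella markers were lower, 6 of 8 endodermis markers and 5 of 8 stele markers were higher, and of the epidermis markers 2 were lower and 1 was higher. Of the 3 cortex markers 1 was higher and 1 lower. Over all genes 39.1% were called in the WER line, and the epidermis count was near that share. In the 35S, SHR and CO2 lines no marker of columella, stele, endodermis or epidermis was called by edgeR. Marker sums still differed there in part without overlap. Epidermis sums were lower in hyl1 35S (92.5 to 101 against 114 to 115 CPM) and hyl1 SHR (115 to 127 against 163 to 199). In hyl1 CO2 they were 61.6 to 72.85 against 129 to 144 CPM. Endodermis sums were higher there (332 to 398 against 139.5 to 161) and stele sums lower (127.5 to 145 against 148 to 181). Stele sums were higher in hyl1 35S (333 to 343 against 259 to 275). The other sums of these lists overlapped. In the SCR line, where no member was called, the stele marker SEOR1 was higher and the epidermis marker PRP3 was lower, beside 1.89% of all genes. Stele sums were 165 to 180 CPM in hyl1 SCR against 106 to 140 in Col0 SCR. Epidermis sums were 44.05 to 49.9 against 63.1 to 146. Summed endodermis markers were 40.0 to 44.1 CPM in Col0 ACR4 against 165 to 193 in hyl1, and 41.2 to 42.0 in Col0 WER against 123 to 252. Summed epidermis and root hair markers were 214 to 218 against 133 to 138 in the ACR4 line and 337 to 414 against at most 227.5 in the WER line. In the WER pair of hyl1, 1 columella marker was at 0 in replicate 1 and 1 endodermis marker at 0 in replicate 2. The 3 shoot markers, which rosette tissue would bring, summed to 3.46 to 18.2 CPM in Col0 and 15.6 to 49.7 in hyl1 over all lines. Within each of the 6 lines both hyl1 sums were above both Col0 sums. As the mean of the lines edgeR called 2 of the 3 higher in hyl1, beside 19.8% of all genes. It called 2 in the WER line and 1 each in the ACR4 and SCR lines, beside 39.1%, 14.7% and 1.89%. The part of these marker differences in the changes of the members was not tested.

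**Figure D3:**
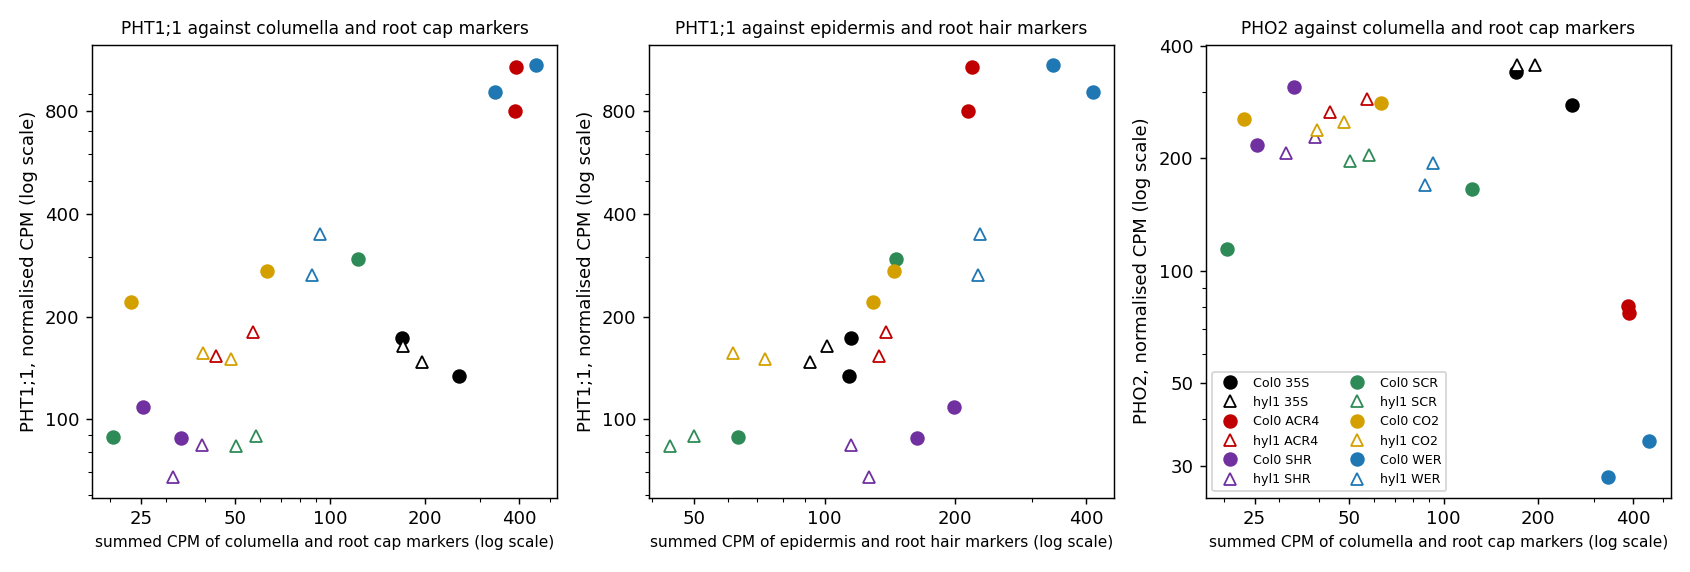
Normalised CPM of PHT1;1 and PHO2 (vertical axes, log scale) against the summed CPM of columella and root cap or epidermis and root hair markers (horizontal axes, log scale) in 24 libraries, with filled circles for Col0, open triangles for hyl1 and a colour for each line. The 4 libraries of Col0 ACR4 and Col0 WER stand apart at the highest PHT1;1, the lowest PHO2 and the highest columella sums, and the 35S libraries hold 170 to 256 CPM of columella markers without such levels.

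The next question was how the members were spread over the 5 layer lines of Col0. All 8 tested members differed between the lines by an F test, beside 33.1% of all genes (the largest adjusted p was 0.0312, for NLA, and it was lost without any 1 of 5 libraries). The SHR and WER libraries each have a run of library numbers apart from those of the other lines, so line and run cannot be told apart for them.

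Col0 WER and Col0 ACR4 shared a profile with high uptake genes and low PHO2 and PHO1. Against the mean of the 4 other layer lines, PHT1;1 was higher by 1.96 ± 0.25 in WER and 1.85 ± 0.25 in ACR4 on the log2 scale, PHT1;4 by 2.41 ± 0.23 and 1.83 ± 0.24, and PHF1 by 1.13 ± 0.19 and 0.83 ± 0.20. PHO2 was lower by −2.40 ± 0.20 and −0.76 ± 0.18, and PHO1 by −1.95 ± 0.27 and −1.23 ± 0.26. In WER 6 members were called, NLA included (−1.06 ± 0.30, adjusted p = 0.0137), beside 26.7% of genes, but NLA lost its call without either WER library (adjusted p = 0.0723 and 0.121). In ACR4 6 were called, the sixth being SPX3 with its 0 counts, beside 12.3% of genes. The SPX3 call was lost in 9 of the 12 fits that left out 1 Col0 library (adjusted p up to 1). PHO2 lost its ACR4 call without either ACR4 library (adjusted p = 0.134 and 0.107), PHF1 without ACR4 replicate 1 (0.232) and PHO1 without ACR4 replicate 2 (0.159).

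Col0 SHR was the mirror of this, with 7 members called beside 19.1% of genes. PHO2 (1.42 ± 0.15), PHO1 (1.52 ± 0.22), SPX1 (1.41 ± 0.34) and SPX3 were higher, and PHT1;1 (−2.22 ± 0.33), PHT1;4 (−2.03 ± 0.32) and PHF1 (−0.79 ± 0.23) were lower. Without SHR replicate 1 the calls of SPX1 (adjusted p = 0.312), SPX3 (0.0913) and PHF1 (0.269) were lost, and that of PHF1 also without replicate 2 (0.0547). In Col0 CO2, PHO2 (1.45 ± 0.15) and PHO1 (1.69 ± 0.22) were higher, 2 members beside 10.1% of genes. In Col0 SCR only PHT1;4 was called (−1.41 ± 0.30, adjusted p = 0.00479), beside 6.50% of genes, and it was lost without SCR replicate 1 (adjusted p = 0.240). These contrasts share libraries and so are not independent of each other.

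By level, PHO2 in Col0 ran from 35S over CO2 and SHR, which overlapped, to SCR, ACR4 and WER, each below the one before without overlap. PHT1;1 ran from WER and ACR4, which overlapped, to CO2 at 220 and 272 CPM, with the 35S, SCR and SHR lines reaching down to 88.2. PHO1 was highest in CO2 and SHR, which overlapped, then 35S, SCR, ACR4 and WER, again without overlap. NLA fell from 35S to SHR, CO2, ACR4, SCR and WER, where CO2 and ACR4 overlapped, and ACR4 and SCR.

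The same 5 contrasts in the hyl1 libraries gave fewer calls of members in the ACR4, SHR, CO2 and WER lines and more in the SCR line, 4 in place of 1. In hyl1 ACR4 no member was called, beside 3.11% of genes, and hyl1 CO2 had none, beside 5.80%; at an unadjusted p under 0.05 the numbers were 3 and 0. In hyl1 SHR only PHT1;1 was called (−1.09 ± 0.31, adjusted p = 0.0290), beside 11.0% of genes, and the call was lost in 3 of 12 fits without 1 hyl1 library (adjusted p up to 0.283). In hyl1 SCR, PHT1;1 (−0.86 ± 0.30), PHT1;4 (−1.32 ± 0.30) and PHO1 (−1.21 ± 0.26) were lower and SPX3 was higher, beside 21.5% of genes. Of these, PHT1;1 lost its call in 10 of the 12 fits without 1 library (adjusted p up to 0.298) and SPX3 in 7 (up to 0.388), and PHT1;4 and PHO1 each lost it without SCR replicate 1 (0.126 and 0.0613). In hyl1 WER, PHT1;1 (1.44 ± 0.26), PHT1;4 (1.70 ± 0.24) and PHO1 (1.33 ± 0.22) were higher and SPX3 was lower, beside 36.8% of genes. The SPX3 call was lost in 11 of the 12 fits (adjusted p up to 0.150), and the other 3 calls were kept in all 12. The uptake transporters were thus above the other layer lines in WER in both genotypes, while PHO1 was below them in Col0 WER and above them in hyl1 WER. PHO2 lay between 170 and 288 CPM in all 10 hyl1 layer libraries, against 28.1 to 311 in the 10 Col0 ones.

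The patterns of the members over the 12 group means can be described by Pearson's r of log2 CPM, with the caution that all values come from the same libraries. PHT1;1 and PHT1;4 had r = 0.98, and PHF1 had 0.83 and 0.82 with them. PHO2 had −0.79, −0.76 and −0.88 with PHT1;1, PHT1;4 and PHF1, and 0.82 and 0.80 with PHO1 and NLA. Among the 16677 genes whose mean log2 CPM was 2 or higher, the most similar to PHT1;1 was its copy PHT1;2 (r = 0.994), then GulLO5 (0.986) and AT1G30700 (0.985). The most similar to PHO2 were AT2G18560 (0.981), PLC1 (0.973) and CPUORF7 (0.970), to PHT1;4 AT3G46280 (0.991), AT1G03220 (0.990) and AT1G78850 (0.988), and to PHF1 CCR2 (0.981), AT3G08030 (0.975) and CASP (AT3G18480, 0.971). For NLA they were AT1G22065 (0.962), AT1G68230 (0.943) and AT5G05960 (0.942), and for PHO1 AT5G44530 (0.964), AT5G66440 (0.962) and DAR2 (0.952). SPX1 had no partner above 0.859 (AT1G03560, AT3G13000 and AT2G25270), and the scarce SPX3 had ZPR4 (0.952), AT5G41920 (0.920) and AT4G08780 (0.912).

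Another 60 phosphate genes, listed by role with earlier results of these data known, were read beside the members, and 50 of them passed the filter. As the mean of the lines 5 were higher and 14 lower in hyl1, beside 19.8% of all genes called, with a median log2 fold change of −0.205 beside −0.066 over all genes. In the ACR4 line 5 were higher and 9 lower, beside 14.7% of all genes called. In the WER line 9 were higher and 18 lower, beside 39.1%, and in the 35S, SHR, SCR and CO2 lines none was called by edgeR, the same lines in which no member was called. In those 4 lines DESeq2 called 0, 1, 0 and 1 of the 50, and 1, 5, 7 and 6 had an unadjusted p under 0.05. The WER medians are −0.697 for the list and −0.24 for all genes. Without the ACR4 and WER lines 4 of the 50 were called in place of 19.

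**Figure D4:**
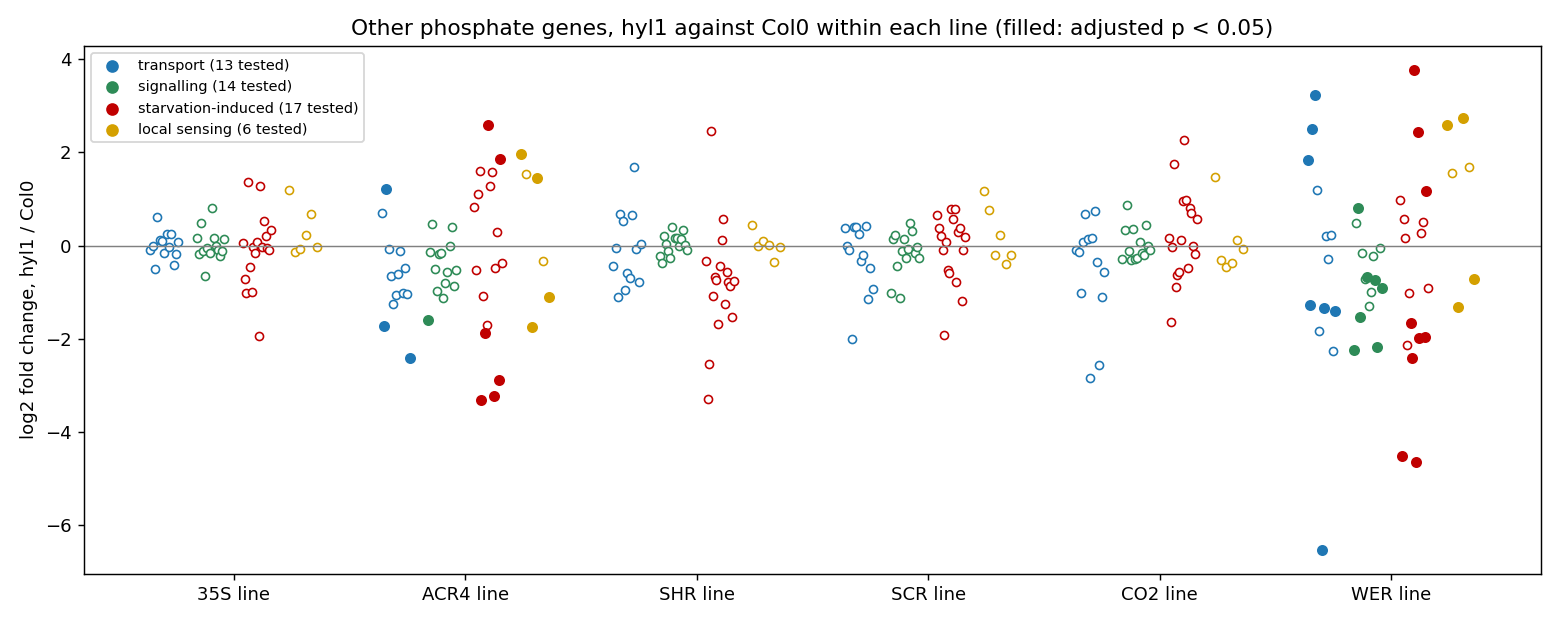
Log2 fold change of hyl1 against Col0 (vertical axis) for the 50 tested phosphate genes outside the 9 members, by line (horizontal axis) and role (colour), with filled points for an adjusted p under 0.05. All filled points lie in the ACR4 and WER lines, 14 and 27 of them.

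Of 13 tested transport genes 4 were lower and none higher as the mean of the lines, beside 19.8% of all genes called in either direction. PHT1;2, the copy of PHT1;1, changed by −0.87 ± 0.15 (adjusted p = 0.000565). In the ACR4 line PHT5;1 (−1.72 ± 0.27, adjusted p = 0.000343), which moves phosphate into the vacuole, was lower too, at 30.4 and 39.3 CPM in hyl1 against 132 and 98.7 in Col0. Of 14 signalling genes 1 was higher and 2 lower, a share near that 19.8%, among them WRKY6 (−0.87 ± 0.15, adjusted p = 0.000564), a repressor of PHO1 transcription. WRKY6 had 240 and 194 CPM in Col0 ACR4 against 76.97 and 66.9 in hyl1, and 284 and 320 in Col0 WER against 99.4 and 28.2. PHR1, the central activator, was not called as the mean of the lines (−0.12, adjusted p = 0.384).

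Of 17 genes known to be induced by phosphate starvation 2 were higher and 6 lower as the mean of the lines, beside 19.8% of all genes called. Among the lower ones were the acid phosphatase PAP12 (−0.90 ± 0.13, adjusted p = 7.55e-05) and 2 enzymes that replace phospholipids when phosphate is short, SQD2 (−1.16 ± 0.21, adjusted p = 0.000630) and PLDZ2 (−1.29 ± 0.24, adjusted p = 0.000856). SQD2 had 231.9 and 236.5 CPM in Col0 ACR4 against 33.7 and 29.4 in hyl1, and 124 and 125 in Col0 WER against 22.9 and 41.0. The phospholipase gene NPC4 went the other way (1.29 ± 0.19, adjusted p = 0.000134), from 2.49 and 4.30 CPM in Col0 WER to 66.4 and 27.5 in hyl1, and from 11.6 and 17.2 to 92.8 and 80.2 in the ACR4 line. NPC4 was also the gene of the list that stood highest in the SCR line (2.85 ± 0.31 in Col0 and 1.91 ± 0.32 in hyl1, adjusted p = 5.31e-06 and 0.000302), where endodermis markers peaked.

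The local response of the root tip to low phosphate had 4 of 6 genes called as the mean of the lines, 2 higher and 2 lower, beside 19.8% of all genes. ALMT1, the malate channel, was higher (1.47 ± 0.16, adjusted p = 4.86e-06), and in the 35S line it had 56.9 and 69.2 CPM in hyl1 against 27.6 and 27.7 in Col0. STOP1, the transcription factor that activates ALMT1, was lower (−0.62 ± 0.07, adjusted p = 1.83e-05), with 211 and 222 CPM in Col0 ACR4 against 59.2 and 69.5 in hyl1 and 108 and 97.6 against 97.1 and 97.8 in the 35S line. LPR2, a ferroxidase of this response, was among the 3 most strongly called of the list in the WER line (2.74 ± 0.41, adjusted p = 7.27e-05). In Col0 SHR the pyrophosphatase gene PPsPase1 was higher (3.29 ± 0.37, adjusted p = 7.47e-06), at 44.9 CPM in replicate 1 and 13.5 in replicate 2. In Col0 CO2 the PHO1 relative PHO1;H1 was higher (1.35 ± 0.27, adjusted p = 0.00296).

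The binding motif of PHR1, P1BS (GNATATNC, which reads the same on both strands), was counted in windows from 250 bases before to 50 after the annotated start. It was found in 3 of the 9 members (33.3%), PHT1;4, SPX1 and SPX3, in 11 of the 17 starvation-induced genes (64.7%) and in 6.25% of 27443 windows of protein-coding genes. The motif begins 7 bases before the start in PHT1;4 and 90 and 213 bases before it in SPX3, and in SPX1 it begins 22 bases after the start. SPX3 had too few counts for its changes to be set against those of PHT1;4. Windows of 30 bases around the upstream matches of these 2 genes are shown with the motif in capitals.
PHT1;4: gttgttcggaaGAATATACcgaagtagcaa
SPX3 distal: tattagagaccGAATATGCcagaggatttg
SPX3 proximal: gctaaagctaaGCATATCCgctttcatatt

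PHT1;4 fell and SPX1 rose in hyl1 in the same ACR4 and WER lines, so members with a match did not move 1 way. A match is a description of the letters and not evidence of binding.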

How the data were processed

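The deposited file was 1 table of raw counts of reads per gene, which the authors made with featureCounts of Subread after CASAVA 1.8.2, TopHat2 2.0.11 and Bowtie2 2.2.1.0 on TAIR10, per the submitters' processing notes. Its version, its use of strand and its handling of multiply matching reads were not given in the sources used here. All 24 columns were mapped to samples by title. The deposited counts went unchanged into edgeR 4.0.16 under R 4.3.3, with a quasi-likelihood F test on 12 groups and TMM scaling. The filter (filterByExpr, minimum count 10, minimum total 15) kept 23219 genes and 8 of the 9 members. P-values were adjusted by Benjamini-Hochberg over these genes, and those under 0.05 were called. SE is the log2 fold change divided by the square root of F. With TMM the median log2 change over the tested genes was within 0.1 of 0 except for hyl1 against Col0 in the WER line, where it was −0.24 (−0.148 with RLE scaling).

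DESeq2 1.42.0, RLE scaling, no filter, a replicate block, subsets of lines and libraries and leaving out each library were alternatives. Leaving out a library leaves a group of 1, which is then assumed to vary like the other groups. The fit was tested on simulated data. CPM intervals and floors cover counting error only. Named are all 9 members, the 8 other phosphate genes with the smallest adjusted p in the mean comparison, up to 3 per line or layer, with part of the latter left out, and the 3 genes most like each member; WRKY6, PHO1;H1 and LPR2 fall under these, and PHR1 was added for its role. The members and lists were chosen with earlier results of these data known.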

Additional observations from a re-analysis of the deposited data

Results flagged for a closer look

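For 6 members the effect of hyl1 differed between the 6 lines by a test of the difference itself (edgeR, adjusted over all genes). The adjusted p was 1.69e-05 for PHO2, 2.29e-05 for PHO1, 0.00469 for PHT1;4, 0.00488 for SPX1, 0.00822 for PHF1 and 0.0125 for PHT1;1. PHO2 was higher in hyl1 in 4 of 6 lines and by over 1 log2 unit in the ACR4 and WER lines alone. PHO1 was higher in those 2 lines and lower in the other 4. PHT1;1, PHT1;4 and PHF1 were lower in 5 of 6 lines each, and SPX1 was higher in 4 of 6. These counts of lines include changes near 0, such as −0.027 for PHF1 in the 35S line and 0.018 for SPX1 in the SCR line. Outside the ACR4 and WER lines no member was called by edgeR.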

How the results depend on the processing

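The 8 tested members gave 152 values over all comparisons, and these were recomputed 2383 times, of which 1728 left out single libraries. In 2198 cases the direction and the side of the threshold stayed, 97 lost the call, 28 gained it and 4 called values changed sign. Of 1188 values that passed in neither fit 56 changed sign. The sign changes of called values were all in the mean over the lines: PHO2 with the 35S, SHR and CO2 lines alone (−0.063), and PHO1 with these lines alone (−0.57), without the WER line (−0.10) and without the ACR4 and WER lines (−0.51). The fits behind these 4 values hold fewer lines, and the cause of the sign changes was not tested.

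As the mean of the lines 1 member was called with the 35S, SHR and CO2 lines alone and 1 without the ACR4 and WER lines, in place of 6, with 775 and 835 genes called in all and 6 and 4 other phosphate genes. Without the WER line 2738 genes were called in place of 4607. With the 4 libraries of the WER line alone 2 members were called in place of 6. Against the 2 other layer lines of the same run of library numbers, 3 members were called in Col0 SCR in place of 1 and 1 in hyl1 ACR4 in place of 0. Leaving out single libraries gave 3687 to 9487 genes and 16 to 32 other phosphate genes for the mean, the highest of each without hyl1 WER replicate 1. It gave 0 to 2 members for hyl1 in the SCR line, 3 to 6 in Col0 ACR4, 4 to 9 in Col0 SHR, 0 to 2 in Col0 SCR, 2 to 4 in Col0 CO2, 0 to 2 in hyl1 ACR4, 0 to 2 in hyl1 SHR, 0 to 4 in hyl1 SCR and 3 to 4 in hyl1 WER. The filter on low counts was applied anew in each fit, and IPS1 passed it in the Col0 SHR fit that called all members. The cause of these differences was not tested. Over all genes, fits on the 4 libraries of a line called 500 genes in place of 23 (35S), 7847 in place of 3415 (ACR4), 38 in place of 19 (SHR), 1 in place of 440 (SCR), 90 in place of 34 (CO2) and 258 in place of 9069 (WER), and DESeq2 called 64 (35S), 51 (SHR) and 97 (CO2). Of the called genes 1314 of 2344 were higher in Col0 CO2 with TMM and 1487 of 2198 with RLE scaling, and for hyl1 18 of 19 in the SHR line and 20 of 34 in the CO2 line against 35 of 51 and 40 of 97 with DESeq2.

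Same-numbered libraries of the 2 genotypes did not deviate together (r of deviations −0.135 to 0.0767 over the 6 lines), so the numbers do not pair them. With a replicate block 2 members were called in Col0 SCR in place of 1, 4509 genes as the mean of the lines, and 20 other phosphate genes. Depth limits SPX3, IPS1 and the microRNA genes, where 0 to 30 counts per library allow no firm statement.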
